A study of Homo sapiens with 12 samples.

Results

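The genes described here are HLA-B, B2M, HERC5 and IFITM1, the interferon and antigen presentation genes named for this account, 4 of the 1676 genes of the deposited table, each found once by its symbol. SH-SY5Y, a human neuroblastoma cell line, was transfected with 1 of 4 tau constructs and its RNA taken 24 h later; tau binds microtubules in neurons. Tau-WT, the reference, carried no substitution. In Tau-S199E a serine is replaced by glutamate, which mimics phosphorylation, in Tau-K174Q a lysine is replaced by glutamine, which mimics acetylation, and Tau-K174Q-S199E joins both in a single molecule. Each group held added tau, and no untransfected or empty-vector group is analysed here. The vector and promoter behind the constructs were not given in the sources used here. Each construct had 3 of the 12 libraries, prepared with a kit that reads mRNA near its 3′ end.

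Interferons are cytokines that cells release on sensing viral nucleic acid, and they act through receptor-bound kinases and STAT transcription factors on genes that carry an interferon response motif near their start. HLA-B encodes a heavy chain of the MHC class I molecule, which holds peptides at the cell surface for inspection by cytotoxic T cells, and B2M encodes β2-microglobulin, the light chain that every class I heavy chain needs to reach the surface. HERC5 encodes the main ligase that attaches the ubiquitin-like protein ISG15 to newly made proteins, and IFITM1 encodes a membrane protein that hinders the entry of viruses. Neurons and neuroblastoma cells are known for low class I levels, which interferon can raise.

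The sequence before the RefSeq start of each gene is shown as a description, and its part in the profiles over the libraries was not tested. The sequences are from RefSeq (GRCh38.p14), which held an entry for 4 of 4 genes, and are on the strand of the gene. Capitals mark matches, on either strand, to the core of the interferon-stimulated response element (GAAA, any 2 bases, GAAA), a shorter interferon regulatory factor motif (GAANNGAAA), the kappa B consensus, the cyclic AMP response motif (TGACG) and the inverted CCAAT box (ATTGG). For HLA-B, B2M and HERC5 the first 241, 220 and 248 of the 250 bases before the RefSeq start are shown. They end where the annotated gene starts. For IFITM1 only the 30 bases around its response element match are shown, since other annotated starts lie further upstream. This stretch lies inside the annotated gene, and the 2 inverted CCAAT box matches of IFITM1 lie outside it. The regions are chr6:31357189-31357429 (minus strand) for HLA-B, chr15:44711267-44711486 (plus) for B2M, chr4:88456869-88457116 (plus) for HERC5 and chr11:313990-314019 (plus) for IFITM1.
HLA-B: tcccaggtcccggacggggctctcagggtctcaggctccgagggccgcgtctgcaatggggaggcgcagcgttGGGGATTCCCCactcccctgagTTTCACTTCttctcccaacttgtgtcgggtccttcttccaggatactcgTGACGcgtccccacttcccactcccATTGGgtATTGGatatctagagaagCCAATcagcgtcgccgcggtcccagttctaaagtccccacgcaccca
B2M: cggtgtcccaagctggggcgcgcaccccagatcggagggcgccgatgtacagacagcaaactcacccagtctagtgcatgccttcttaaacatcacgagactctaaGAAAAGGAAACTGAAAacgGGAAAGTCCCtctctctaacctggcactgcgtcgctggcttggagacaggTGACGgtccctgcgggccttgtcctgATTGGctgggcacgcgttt
HERC5: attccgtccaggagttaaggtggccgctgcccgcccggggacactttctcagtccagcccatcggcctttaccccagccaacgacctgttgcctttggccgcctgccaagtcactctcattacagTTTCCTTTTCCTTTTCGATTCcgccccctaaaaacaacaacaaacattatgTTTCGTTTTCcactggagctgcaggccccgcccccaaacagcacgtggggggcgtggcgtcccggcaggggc
IFITM1: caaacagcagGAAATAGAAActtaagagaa

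In the 250 bases before the RefSeq start, the response element core was found at 2 overlapping places in B2M, at 3 in HERC5, of which 2 overlap, and at 1 in IFITM1, and the shorter motif at 1 place in HLA-B and at 1 in HERC5, which overlaps a core match. Of 35116 RefSeq starts 3.02% held the core and 6.56% the shorter motif. Among the 1802 starts of genes in the deposited table the shares were 2.22% and 4.16%. HLA-B and B2M also share a cyclic AMP response motif followed by an inverted CCAAT box on the strand of the gene, 20 bases apart in HLA-B and 21 in B2M, an arrangement known from class I promoters. A gap of 15 to 25 bases, a range set after these promoters had been seen, was found in 0.219% of all starts and in 0.444% of those of the table. Alone and on either strand, the cyclic AMP response motif was in 21.2% of all starts and the inverted CCAAT box in 32.0%. Among the starts of the table the shares were 30.7% and 33.7%. The kappa B consensus was in 9.96% of all starts and 11.4% of those of the table. It matched HLA-B at 2 overlapping places, each read on both strands, and B2M at 1, which lies close to the response element. The gamma-activated site (TTCNNNGAA) was in 6.57% of all starts and 4.55% of those of the table. Among the 4 genes it was found only in IFITM1, in a stretch not shown. These matches describe the reference sequence, not the binding of a factor.

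**Figure D1:**
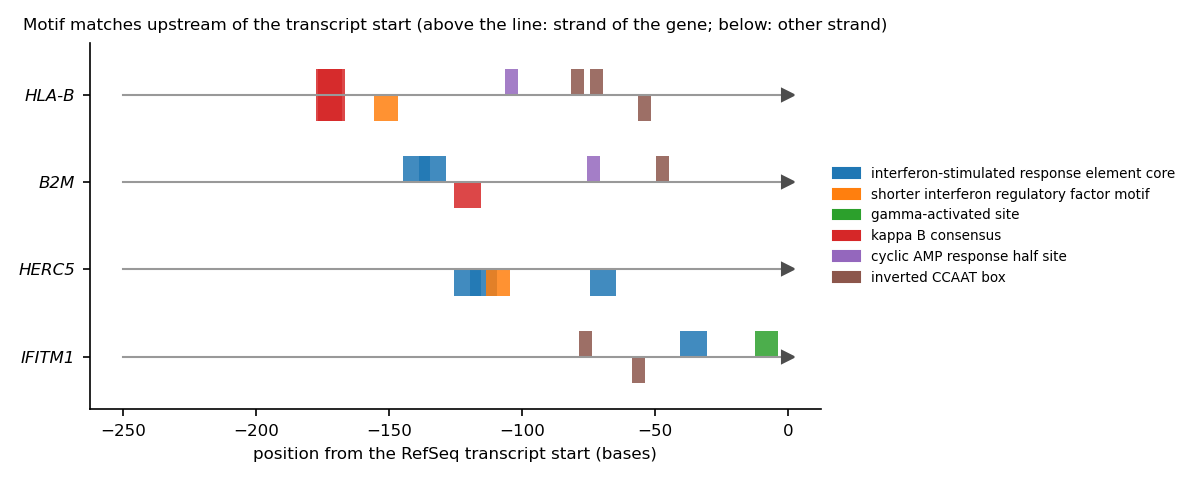
Motif matches (coloured boxes) in the 250 bases before the RefSeq start of HLA-B, B2M, HERC5 and IFITM1, by distance in bases from that start; boxes above a line are on the strand of the gene and boxes below it on the other. HLA-B and B2M each carry a cyclic AMP response motif followed 20 and 21 bases later by an inverted CCAAT box. The response element core matches at 3 places in HERC5, 2 in B2M and 1 in IFITM1.

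The deposited library values are standardised, with mean 0 and SD 1 for every gene across the 12 libraries. A value of 1 lies 1 SD of that gene above its mean, and differences are in these SD units, which say nothing of the level of a gene or of its fold change. The depth of the libraries is unknown, so no counting error can be given, and the number of libraries limits the precision. The labels do not say whether the 3 libraries of a construct were separate cultures. The p-values below therefore reflect the spread between libraries, which may be technical. Each gene of the table has a deposited adjusted p under 0.05 (100% of 1676), and the contrast it belongs to is not named. Its fold change had the sign of the interaction (the difference that went with K174Q in the presence of S199E, less that in its absence) in 1676 genes, and the sign opposite to Tau-S199E against Tau-WT in 1676, so neither comparison is independent of how the table was selected. Nor are the other pairs of constructs shown to be independent of it: the sign was opposite to Tau-K174Q against Tau-WT in 1675 genes and equal to Tau-K174Q-S199E against Tau-S199E in 1672. Over the whole table the values of Tau-S199E library 12 spread more widely than those of libraries 10 and 11 (SD over genes 1.67 against 0.83 and 0.77). Its median absolute departure from the construct mean was 0.64, against 0.31 and 0.42. That is close to the 0.63 of Tau-K174Q-S199E library 16. Library 18 of Tau-K174Q-S199E departed most from the mean of its construct (median absolute departure 0.85 against 0.63 and 0.38). Of the markers checked, the table lists 0 of 15 of adrenergic neuroblastoma cells, the type SH-SY5Y belongs to, 0 of 11 of leukocytes and 3 of 11 of mesenchymal neuroblastoma cells, so it cannot check the identity of the line.

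The class I heavy chain gene HLA-B (ENSG00000234745, principal transcript on chromosome 6, 31353872 to 31357187, minus strand, GRCh38) was lowest with Tau-WT and highest with Tau-S199E. Its values were -0.83, -1.18 and -1.44 in Tau-WT libraries 1, 2 and 3, and 1.47, 0.80 and 1.32 in Tau-S199E libraries 10, 11 and 12. With Tau-K174Q they were 0.51, -0.08 and -0.27 in libraries 4, 5 and 6, and with Tau-K174Q-S199E -0.37, -0.93 and 0.99 in libraries 16, 17 and 18. The libraries of Tau-WT, Tau-K174Q and Tau-S199E did not overlap with one another, in that rising order, while Tau-K174Q-S199E ranged from the level of Tau-WT to that of Tau-S199E. The mean of Tau-K174Q-S199E (-0.10 ± 0.99) lay between those of Tau-WT (-1.15 ± 0.31) and Tau-K174Q (0.06 ± 0.41; SD, n = 3 each), and differed from neither neighbour in that order beyond the spread of its libraries.

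B2M (ENSG00000166710, chromosome 15, 44711487 to 44718877, plus strand, GRCh38), the light chain gene, lies on another chromosome than HLA-B and had the same order of construct means. Its values were -1.33, -0.80 and -1.29 with Tau-WT, 0.64, 0.26 and -0.19 with Tau-K174Q, 1.0, 0.35 and 1.98 for Tau-S199E, and -0.32, -0.93 and 0.62 with Tau-K174Q-S199E, in the order of the library numbers. Tau-WT did not overlap with Tau-K174Q or Tau-S199E, but the latter pair overlapped, since Tau-S199E library 11 lay below Tau-K174Q library 4. The means were -1.14 ± 0.30 with Tau-WT, -0.21 ± 0.78 with Tau-K174Q-S199E, 0.24 ± 0.42 with Tau-K174Q and 1.11 ± 0.82 with Tau-S199E (SD over 3 libraries).

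HLA-B and B2M differed by 0.67 SD units or less in each of the 12 libraries, and by 0.05, 0.00 and 0.37 in libraries 16, 17 and 18. In these 3 libraries of Tau-K174Q-S199E both genes were lowest in 17 and highest in 18. The largest gap, 0.67, was in Tau-S199E library 12, where B2M was the higher. The Pearson correlation of the pair over the 12 libraries was 0.93, given as a measure of likeness only, since the libraries share their constructs and B2M had 215 genes of the table with a correlation above 0.9. Among all other genes HLA-B was at place 100 by likeness to B2M, and B2M at place 11 by likeness to HLA-B. The genes with a symbol most like HLA-B were CEBPZ, a nuclear factor of ribosome assembly (0.98), DLAT, a subunit of pyruvate dehydrogenase (0.96), and ADK, adenosine kinase (0.94). Those most like B2M were HSPB11, a component of intraflagellar transport (0.99), the ribosomal protein gene RPL30 (0.98) and SDHC, a subunit of succinate dehydrogenase (0.98).

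HERC5 (ENSG00000138646, chromosome 4, 88457117 to 88506163, plus strand, GRCh38), the ISG15 ligase gene, ran in the opposite order. Its values were 1.48, 1.57 and 0.41 with Tau-WT, -0.44, -0.12 and 0.10 with Tau-K174Q, -1.34, -1.74 and -0.74 for Tau-S199E, and 0.75, -0.09 and 0.16 with Tau-K174Q-S199E. The libraries of Tau-S199E were the 3 lowest of the 12 and overlapped with no other construct, while Tau-WT lay above Tau-K174Q without overlap and shared its range with Tau-K174Q-S199E. The means were, from the highest, 1.15 ± 0.65 with Tau-WT, 0.28 ± 0.43 with Tau-K174Q-S199E, -0.15 ± 0.27 with Tau-K174Q and -1.27 ± 0.50 for Tau-S199E (SD, n = 3 each). The construct accounted for 83.1% of the variance of HERC5, against 75.2% for HLA-B, 71.9% for B2M and a median of 65.8% over the table. The genes most like HERC5 over the 12 libraries were LTBR, the lymphotoxin receptor (Pearson correlation 0.91), ZC3H6 (0.90) and PSIP1, a chromatin-bound coactivator (0.89).

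IFITM1 (ENSG00000185885, chromosome 11, 313506 to 315272, plus strand, GRCh38) varied more within constructs than between them. Its values were -1.08, -0.90 and -0.85 with Tau-WT, 0.45, 1.96 and -1.13 with Tau-K174Q, -0.35, 0.95 and 0.51 for Tau-S199E, and 1.16, -0.13 and -0.58 with Tau-K174Q-S199E. The highest and the lowest of the 12 libraries, 5 and 6, were both of Tau-K174Q, and the Tau-WT libraries lay within 0.23 SD units of each other near the bottom. The means were -0.95 ± 0.12 with Tau-WT, 0.15 ± 0.90 with Tau-K174Q-S199E, 0.37 ± 0.66 for Tau-S199E and 0.43 ± 1.54 for Tau-K174Q (SD over 3 libraries), and the last 3 do not differ beyond their spread. The residual SD of IFITM1 within constructs, 0.95, was exceeded by 1 gene of the table, and the construct accounted for 33.8% of its variance. The genes most like it were SYNE1, a nuclear envelope protein gene (Pearson correlation 0.88), VPS37A of the endosomal sorting machinery (0.75) and FAM24B (0.65).

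The value of IFITM1 is also less certain in what it counts. In GENCODE 29, 251 of the 251 possible 50-base words in the last 300 bases of its principal transcript also occur in a transcript of IFITM2 that overlaps it, and 8 (3.19%) occur in IFITM3. The same words of HLA-B, B2M and HERC5 occur in 0 other annotated genes. As a whole the annotated HLA-B gene (31269491 to 31357188) overlaps 8 other genes, HLA-C on the same strand among them. The words searched come only from the last 300 bases of each principal transcript, so reads over that overlap were not examined. HLA-B is highly polymorphic, and how reads from the line's own alleles were assigned is not stated.

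**Figure D2:**
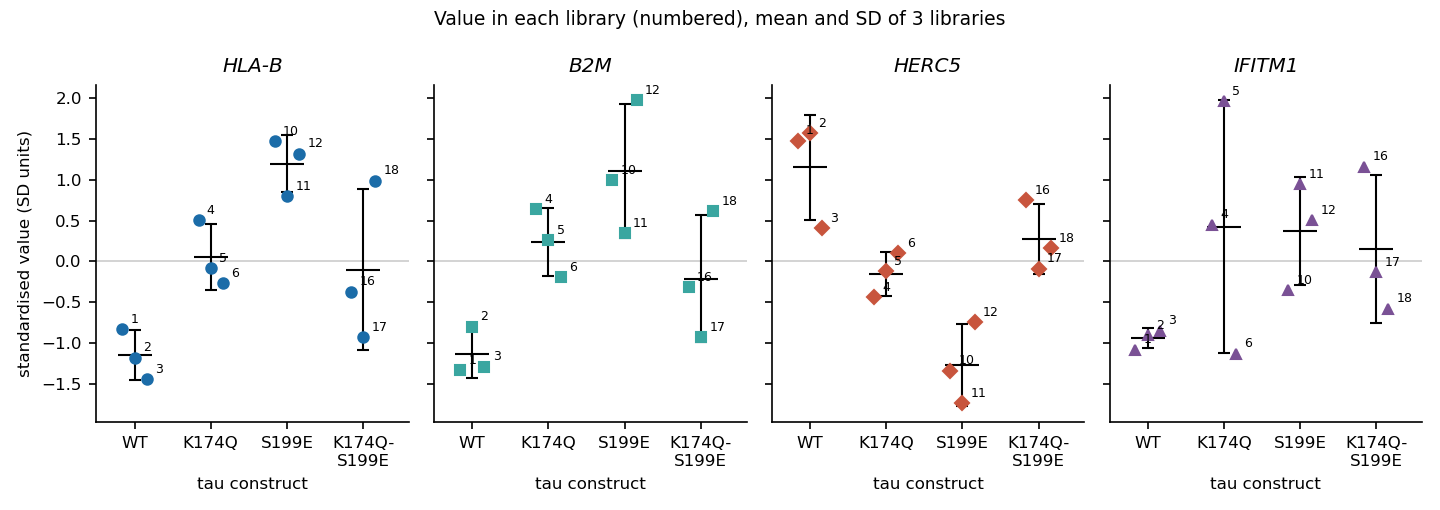
Standardised value (SD units, y axis) of HLA-B, B2M, HERC5 and IFITM1 in each library, numbered, by tau construct (x axis); bars show the mean and SD of 3 libraries. HLA-B and B2M are lowest with Tau-WT and highest with Tau-S199E, HERC5 shows the opposite order, and IFITM1 reaches both its highest value (1.96) and its lowest (-1.13) with Tau-K174Q.

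In the authors' deposited table the log2 fold change was -1.96 for HLA-B (adjusted p = 0.00272) and -2.25 for B2M (adjusted p = 0.000336). For HERC5 the authors' deposited table gave 0.79 (adjusted p = 0.0052) and for IFITM1 -6.08 (adjusted p = 0.011). A negative fold change was listed for 52.9% of all genes, HLA-B, B2M and IFITM1 among them. The median size over the table was 1.36 and its median adjusted p 0.0135. By size of the deposited fold change IFITM1 was at place 7 of 1676, B2M at 258, HLA-B at 375 and HERC5 at 1578, while by the deposited adjusted p B2M was at place 65, HLA-B at 345, HERC5 at 505 and IFITM1 at 741. The gene with the largest fold change of the 4 thus had the highest p and the widest spread within constructs. The authors placed HLA-B and B2M in the same cluster, number 4 of 533 genes, IFITM1 in cluster 3 of 353 and HERC5 in cluster 1 of 535.

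**Figure D3:**
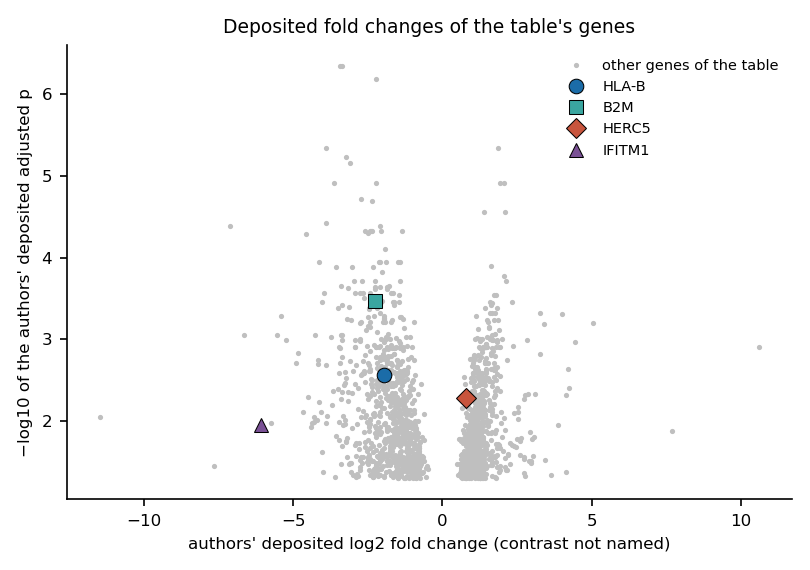
The authors' deposited log2 fold change (x axis) and −log10 of their adjusted p (y axis) for the 1676 genes of the table in grey, with HLA-B, B2M, HERC5 and IFITM1 marked. IFITM1 lies far to the left at -6.08 with a modest p, B2M and HLA-B lie among the negative genes, and HERC5 (0.79) lies among the smallest positive fold changes.

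The first comparison, Tau-S199E against Tau-WT, sets the construct with the phosphorylation mimic against the reference. HLA-B rose by 2.34 SD units (SE 0.48, 95% interval 1.24 to 3.44, adjusted p = 0.01 by limma with Benjamini-Hochberg adjustment over the table) and B2M by 2.25 (SE 0.51, 1.08 to 3.42, adjusted p = 0.0104). HERC5 changed by -2.42 (SE 0.39, -3.33 to -1.52, adjusted p = 0.00968). IFITM1 did not pass, with a difference of 1.32 (SE 0.78, -0.48 to 3.11, adjusted p = 0.131), although its 3 libraries lay above those of Tau-WT. Thus 3 of the 4 genes were called, against 90.0% of the table, which is near the background and not a result about these genes. The libraries did not overlap in 4 of 4 genes, against 94.2% of the table, with two-sided exact permutation p = 0.1 for each, the smallest that 3 against 3 can give. HERC5 had a larger absolute difference than all but 29 genes, HLA-B than all but 92 and B2M than all but 236, the median size over the table being 1.99. These places are in SD units of each gene and are not places by fold change. By size of the deposited fold change, whose contrast is not named, B2M was at place 258, HLA-B at 375 and HERC5 at 1578. Without library 12 HLA-B was at 2.28 (adjusted p = 0.0312), B2M at 1.82 (0.033) and HERC5 at -2.69 (0.0191), while 49.7% of the table was called. Without libraries 12 and 18 that share was 79.4%. IFITM1 passed with moderated variances (adjusted p = 0.0196, 98.4% of the table) and with only the 6 libraries compared (0.0431, 72.0%). The moderated fit gave each of the 4 genes the same SE, 0.56, in place of the 0.78 of IFITM1. With the 6 libraries the SE of IFITM1 was 0.39.

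The acetylation mimic on its own was compared as Tau-K174Q against Tau-WT, with the same Tau-WT libraries as before. The differences were 1.2 for HLA-B (SE 0.48, 95% interval 0.10 to 2.30, adjusted p = 0.0847), 1.37 for B2M (SE 0.51, 0.20 to 2.55, adjusted p = 0.0767) and -1.31 for HERC5 (SE 0.39, -2.21 to -0.40, adjusted p = 0.066). For IFITM1 the difference was 1.37 (SE 0.78, -0.42 to 3.17, adjusted p = 0.147), with 0.61 without library 5 and 2.15 without library 6. None of the 4 passed in limma, as no gene of the table did (0%), while 870 genes (51.9%) had an unadjusted p under 0.05 and 1004 passed with moderated variances (59.9%). The libraries did not overlap in HLA-B, B2M and HERC5 (two-sided exact permutation p = 0.1 each), against 80.7% of the table. Without Tau-K174Q-S199E library 18, which enters this comparison only through the shared residual variance, these 3 passed (adjusted p = 0.0254, 0.0453 and 0.0451), as did 40.3% of the table. With moderated variances B2M, HERC5 and IFITM1 passed (adjusted p = 0.0317, 0.0389 and 0.0317), and with only the 6 libraries compared HLA-B and B2M (0.0406 and 0.0329, 48.9% of the table). The moderated SE was 0.56 for each of the 4 genes, below the 0.78 of IFITM1 and above the 0.39 of HERC5.

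Tau-K174Q-S199E against Tau-WT gave differences of 1.04 for HLA-B (SE 0.48, 95% interval -0.06 to 2.14), 0.93 for B2M (SE 0.51, -0.24 to 2.10) and -0.88 for HERC5 (SE 0.39, -1.78 to 0.03). IFITM1 had a difference of 1.09 (SE 0.78, -0.70 to 2.89). None passed in limma (adjusted p between 0.533 and 0.534), as no gene of the table did (0%, with 127 or 7.58% at an unadjusted p under 0.05 and 0 with moderated variances). Without library 18 the difference of HLA-B was 0.49 and that of B2M 0.51, and without library 16 that of IFITM1 was 0.59. Their libraries overlapped with those of Tau-WT, as did those of HERC5, while those of IFITM1 did not, against 11.6% of the table without overlap (two-sided exact permutation p = 0.1 for IFITM1).

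Adding K174Q to the S199E construct, Tau-K174Q-S199E against Tau-S199E, went with lower means of the class I genes and a higher mean of HERC5, none of which passed. The differences were -1.30 for HLA-B (SE 0.48, 95% interval -2.40 to -0.20, adjusted p = 0.0717), -1.32 for B2M (SE 0.51, -2.49 to -0.15, adjusted p = 0.0731) and 1.55 for HERC5 (SE 0.39, 0.64 to 2.46, adjusted p = 0.0644). IFITM1 differed by -0.22 (SE 0.78, -2.02 to 1.57), and by -0.73 to 0.14 when each library in turn was left out. In limma 0.119% of the table passed, 2 genes, with 56.4% at an unadjusted p under 0.05. The libraries of HERC5 did not overlap, against 43.4% of the table, and those of the other 3 genes did. The calls changed when library 18 was left out. Without it HLA-B was at -1.85 (adjusted p = 0.017), B2M at -1.74 (0.0231) and HERC5 at 1.61 (0.024), and 78.5% of the table passed. Without libraries 12 and 18 they were at -1.79, -1.30 and 1.87 (adjusted p = 0.0297, 0.0431 and 0.0352), with 43.6% of the table. With moderated variances they passed as well (adjusted p = 0.0356, 0.0334 and 0.0192; 68.8% of the table).

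Adding S199E to the K174Q construct, Tau-K174Q-S199E against Tau-K174Q, gave small differences in the fit of all libraries. They were -0.16 for HLA-B (95% interval -1.26 to 0.94), -0.44 for B2M (-1.62 to 0.73) and 0.43 for HERC5 (-0.48 to 1.34), and -0.28 for IFITM1 (-2.08 to 1.52), with overlapping libraries in each. None passed in limma (adjusted p from 0.513 to 0.809), as no gene of the table did (0%, with 138 or 8.23% at an unadjusted p under 0.05 and 2 genes, 0.119%, with moderated variances). The table's share of genes without overlap was 11.2%. These values moved when single libraries were left out. Without library 18 HLA-B was at -0.71, B2M at -0.86 and IFITM1 at 0.08, and 142 genes of the table passed (451 without libraries 12 and 18), none of the 4 among them. With each library left out in turn, HLA-B ranged from -0.71 to 0.25, B2M from -0.86 to -0.09, HERC5 from 0.19 to 0.61 and IFITM1 from -1.06 to 0.48.

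Tau-S199E against Tau-K174Q gave 1.14 for HLA-B (95% interval 0.04 to 2.24, adjusted p = 0.297), 0.88 for B2M (-0.29 to 2.05, adjusted p = 0.368) and -1.12 for HERC5 (-2.03 to -0.21, adjusted p = 0.263). IFITM1 differed by -0.06 (-1.85 to 1.74), and by -0.83 to 0.71 when each library in turn was left out. None passed in limma, against 0.0597% of the table, 1 gene (16.1% at an unadjusted p under 0.05, 0 genes with moderated variances). The libraries of HLA-B and HERC5 did not overlap, against 36.2% of the table (two-sided exact permutation p = 0.1 each). Without library 12 the difference of B2M was 0.44.

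The interaction asks whether the change that goes with K174Q depends on S199E. It was -2.50 for HLA-B (SE 0.67, 95% interval -4.06 to -0.95, adjusted p = 0.0183), -2.70 for B2M (SE 0.72, -4.35 to -1.04, adjusted p = 0.0183) and 2.85 for HERC5 (SE 0.56, 1.57 to 4.14, adjusted p = 0.0182). IFITM1 did not pass (-1.60, SE 1.10, -4.14 to 0.94, adjusted p = 0.185), and its absolute interaction was smaller than that of 1674 genes of the table. In limma 97.0% of the table passed (45.5% positive and 51.5% negative), a share that the selection of the genes can set, so nothing is read from the 3 of 4. IFITM1 passed with moderated variances (adjusted p = 0.0439, 100% of the table) and without Tau-K174Q library 6 (-2.38, adjusted p = 0.0397, 89.7% of the table). The moderated SE was 0.79 for each of the 4 genes, in place of the 1.10 of IFITM1. Without Tau-K174Q library 5 IFITM1 was at -0.83 (adjusted p = 0.385).

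**Figure D4:**
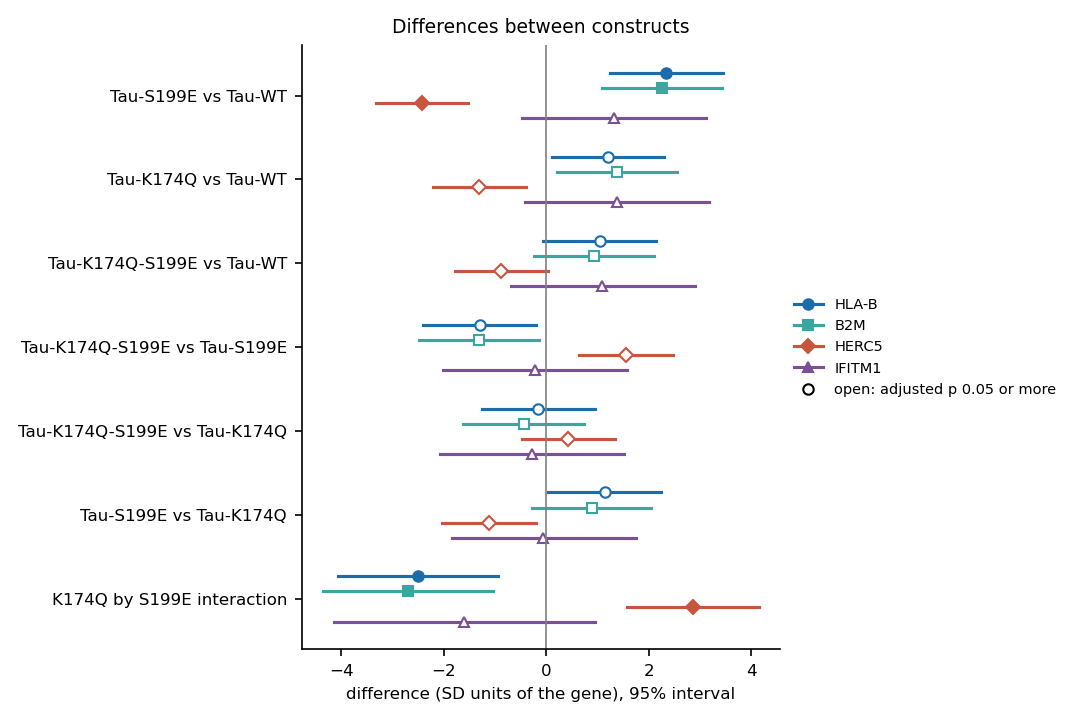
Difference between constructs in SD units (x axis) with its 95% interval for HLA-B, B2M, HERC5 and IFITM1, by comparison (y axis); filled points passed an adjusted p of 0.05. HLA-B, B2M and HERC5 are filled in Tau-S199E against Tau-WT and in the interaction, and all intervals of IFITM1 hold 0.

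Other genes of these pathways came from lists of 237 genes in all, of which the table holds 23, the 4 genes above included. With Tau-S199E against Tau-WT 15 of the 23 rose and 5 fell, with a median difference of 1.77 against 1.41 over the table, where 809 rose and 700 fell (48.3% and 41.8%). Standardised differences lie in clusters on either side of 0, so a median reflects which side holds more genes. Without library 12 the list counts were 6 and 3 (over all genes 478 and 355), and without libraries 12 and 18 they were 13 and 4 (over all genes 734 and 597). The share of all genes called, against which each list below is to be read, was 90.0% with all libraries, 49.7% without library 12 and 79.4% without libraries 12 and 18. In the other pairs of constructs 0 of the 23 passed in limma. At most 0.119% of the table passed in any of those pairs, so this count says nothing about the lists.

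In the class I pathway, HLA-B and B2M were the 2 of 7 chain genes in the table, and other heavy chain genes are not analysed here. Of 12 peptide-loading genes 3 were in it, and they split. TAP2, a subunit of the pump that brings peptides into the endoplasmic reticulum, rose by 1.81 (SE 0.57, adjusted p = 0.0204), from -1.20 ± 0.57 with Tau-WT to 0.61 ± 0.59 with Tau-S199E. HM13, a signal peptide peptidase, fell by 2.29 (SE 0.50, adjusted p = 0.0102), and TAPBP, the tapasin that bridges the pump and the class I molecule, had a difference of -1.62 that did not pass (SE 0.71, adjusted p = 0.0552). The median of the 3 was -1.62. Without library 12, 0 of them rose and 1 fell (49.7% of the table called), and without libraries 12 and 18, 1 rose and 1 fell (79.4%).

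The proteasome cuts the proteins from which class I peptides come. Of 14 genes of its constitutive core 8 were in the table, and with Tau-S199E 7 were higher and 1 lower past the threshold, with a median of 1.79 against 1.41 over the table, where 48.3% were higher and 41.8% lower. Here too a median reflects which side of 0 holds more genes. PSMB6, which encodes a catalytic subunit, rose by 2.33 (SE 0.33, adjusted p = 0.00868), PSMB3 by 1.95 (SE 0.60, adjusted p = 0.0192) and PSMB4 by 1.94 (SE 0.55, adjusted p = 0.0157), while PSMB7, another catalytic subunit, fell by 1.99 (SE 0.64, adjusted p = 0.0217). Without library 12, 1 rose and 0 fell (49.7% of the table called), and without libraries 12 and 18, 5 rose and 1 fell (79.4%). Of 7 genes of the interferon-induced proteasome and its activator only PSME2, an activator subunit, was listed, and its differences of -0.58 (SE 0.64) with Tau-S199E and -1.82 (SE 0.64) with Tau-K174Q did not pass (adjusted p = 0.385 and 0.0725).

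The table held few other interferon genes. Of 68 interferon-stimulated effectors it had 3, HERC5, IFITM1 and GBP1, where HERC5 and GBP1 were lower with Tau-S199E past the threshold and IFITM1 did not pass. GBP1, a guanylate-binding protein strongly induced by interferon gamma in many cells, fell by 2.32 (SE 0.39, adjusted p = 0.00968), from 1.40 ± 0.17 with Tau-WT to -0.92 ± 0.22 with Tau-S199E, while Tau-K174Q had -0.50 ± 0.74 and Tau-K174Q-S199E 0.03 ± 0.53 (SD, n = 3 each). Both falls were also called without library 12. Of 22 genes of interferon receptors and signalling only STAT3, a transcription factor of cytokine receptors, was in the table, and it fell by 1.70 (SE 0.68, adjusted p = 0.0413), a call lost without library 12. The table held 1 of 12 genes of ISG15 conjugation and the HERC family and 1 of 5 IFITM genes, which are HERC5 and IFITM1 themselves, and 0 of 32 genes of nucleic acid sensing and 0 of 10 of MHC class II.

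Of 22 NF-kB genes and inflammatory targets, 2 were in the table and both rose with Tau-S199E: TNFAIP2, a target of tumour necrosis factor, by 1.91 (SE 0.57, adjusted p = 0.0176) and NKRF, a repressor of NF-kB targets, by 1.46 (SE 0.36, adjusted p = 0.0116). The mean of NKRF was highest with Tau-K174Q (1.18 ± 0.50, against 0.14 ± 0.37 with Tau-S199E and -1.32 ± 0.21 with Tau-WT; SD, n = 3 each). Without library 12, 1 of these 2 rose, and without libraries 12 and 18 both did.

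Class I levels are known to be higher in the mesenchymal state of neuroblastoma, so markers of that state are given beside HLA-B and B2M. The 3 of 11 in the table, CD44, a hyaluronan receptor, the calcium-binding S100A6 and the transcription factor SNAI2, rose with Tau-S199E by 2.11, 2.20 and 1.93 (SE 0.44, 0.49 and 0.57), in a comparison in which 48.3% of the table rose, and 2 of them also rose without library 12. Their mean ranged from -1.32 to -0.76 over the libraries of Tau-WT, from 0.28 to 0.49 with Tau-K174Q, from 0.64 to 1.83 with Tau-S199E and from -1.0 to 0.67 with Tau-K174Q-S199E. The mean of HLA-B and B2M ranged from -1.36 to -0.99, -0.23 to 0.58, 0.58 to 1.65 and -0.93 to 0.81 in the same order. The part of these markers in the class I result was not tested, and in bulk RNA more cells of a kind and more RNA per cell cannot be told apart.

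**Figure D5:**
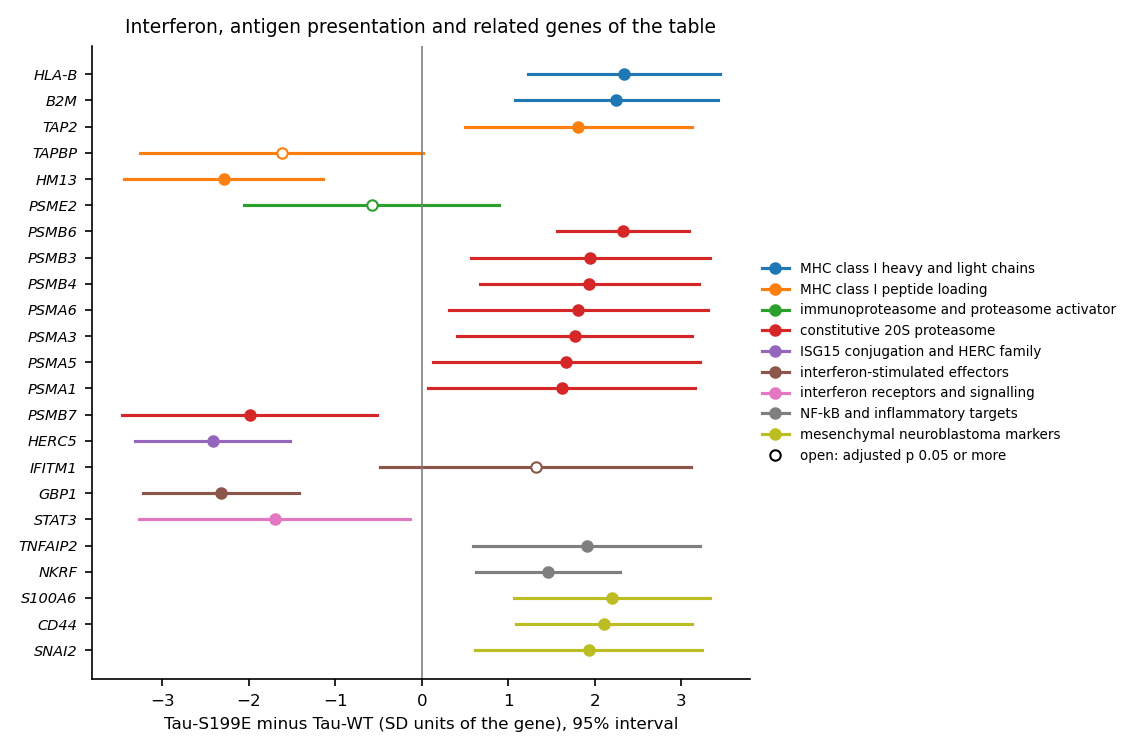
Difference of Tau-S199E from Tau-WT in SD units (x axis) with its 95% interval for the 23 listed genes of the table (y axis), coloured by list; filled points passed an adjusted p of 0.05. HLA-B, B2M, TAP2 and 7 proteasome core genes lie to the right, while HERC5, GBP1, STAT3, HM13 and PSMB7 lie to the left.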

How the data were processed

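RNA was taken 24 h after transfection, and 400 ng went into each library, per the labels' protocols. STAR 2.5.3a, RSEM 1.2.31, DESeq2 and GRCh38 appear in the submitters' processing notes without role or order; filters and strand are not stated. The deposited library values are a score that the authors scaled per gene to mean 0 and SD 1, as the values show. The deposited log2 fold change and adjusted p-value are the authors', per the file headers. Scaling removed levels and depth, so no count test, pseudocount or filter could be used. Columns name a construct and a library number, not the labels' replicate.

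A mean per construct was fitted to each gene in limma 3.58.1 (R 4.3.3). Contrasts were tested two-sided on the gene's ordinary residual variance (8 degrees of freedom), with Benjamini-Hochberg adjustment over the 1676 genes at 0.05. The fit was tested on simulated data. Alternatives were moderated variances, the 6 libraries compared, ranks within a gene, and leaving out libraries. The members and lists were chosen with earlier results of these data known. Genes named are the 4 members, the listed genes, and the 3 genes with a symbol most correlated with each member. Motifs were searched in RefSeq promoters, and gene positions come from GENCODE 29.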

Additional observations from a re-analysis of the deposited data

Results flagged for a closer look

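The change that went with adding K174Q differed between constructs with and without S199E in 3 of the 4 genes, by the interaction test in limma: -2.50 SD units for HLA-B (adjusted p = 0.0183), -2.70 for B2M (adjusted p = 0.0183) and 2.85 for HERC5 (adjusted p = 0.0182). Tau-K174Q minus Tau-WT was 1.2, 1.37 and -1.31 for these genes in that order, and Tau-K174Q-S199E minus Tau-S199E was -1.30, -1.32 and 1.55. The table is made of genes with a deposited adjusted p under 0.05 and 97.0% of it passed this test, so the 3 values describe these genes and are no separate evidence. The sign held in each fit that left out 1 library, with values from -3.05 to -2.09 for HLA-B, from -3.11 to -2.26 for B2M and from 2.61 to 3.23 for HERC5. Since the deposited fold change had the sign of the interaction in all 1676 genes, this is no separate evidence either.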

How the results depend on the processing

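Standardised values allow no pseudocount, filter or other scaling. Leaving out libraries 12 and 18 together was chosen after seeing the data. No paired analysis was possible because the columns carry library numbers and not the labels' replicate numbers. Of 440 values of single members under the alternatives, 406 kept direction and side of the threshold, 22 passed it newly, 12 turned direction and 0 lost a call. Many of them could not turn direction. The difference of a pair is the same with moderated variances, with only the 6 libraries compared, and without a library outside the pair. The tally is therefore no measure of how stable the directions are. The values that turned direction belong to comparisons of constructs other than Tau-WT, where the difference was small and not called.

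For Tau-K174Q against Tau-WT, limma called 1004 genes and 3 members with moderated variances, 819 genes and 2 members with the 6 libraries compared, and 26 genes on ranks. For Tau-K174Q-S199E against Tau-S199E it called 1153 genes and 3 members with moderated variances, 0 genes with the 6 libraries, 411 genes and 1 member, HERC5, on ranks, and 730 genes and 3 members without libraries 12 and 18. For Tau-K174Q-S199E against Tau-K174Q it called 2 genes with moderated variances and 451 without libraries 12 and 18. For Tau-S199E against Tau-K174Q it called 0 genes with moderated variances, with the 6 libraries and on ranks, and 2 without libraries 12 and 18, against 1 in the fit reported.

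With each library left out in turn, the genes called ranged from 833 to 1572 for Tau-S199E against Tau-WT (3 members throughout), from 0 to 675 for Tau-K174Q against Tau-WT (0 to 3 members) and from 0 to 2 for Tau-K174Q-S199E against Tau-WT. They ranged from 0 to 1315 for Tau-K174Q-S199E against Tau-S199E (0 to 3 members), from 0 to 142 for Tau-K174Q-S199E against Tau-K174Q, from 0 to 3 for Tau-S199E against Tau-K174Q and from 1273 to 1628 for the interaction (3 to 4 members). The lowest count for Tau-S199E against Tau-WT came without library 12, and 675, 1315 and 142 came without library 18. In the leave-one-out fits IFITM1 ranged from -0.73 to 0.14 for Tau-K174Q-S199E against Tau-S199E, from -1.06 to 0.48 for Tau-K174Q-S199E against Tau-K174Q and from -0.83 to 0.71 for Tau-S199E against Tau-K174Q. HLA-B ranged from -0.71 to 0.25 for Tau-K174Q-S199E against Tau-K174Q. Without libraries 12 and 18 IFITM1 was at 0.21 for Tau-K174Q-S199E against Tau-S199E and at 0.08 against Tau-K174Q. On ranks it was at 0.67 for Tau-K174Q-S199E against Tau-K174Q and at 1.33 for Tau-S199E against Tau-K174Q, in rank units. Where a count moved, the cause was not tested.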

Other observations

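The deposited table annotates its genes with Gene Ontology terms, and 3 terms bearing on these genes were picked after the values were seen, so their counts are descriptions. Of 5 genes under the interferon-gamma-mediated signaling pathway, 4 rose and 1 fell with Tau-S199E against Tau-WT, where 90.0% of the table was called (48.3% higher, 41.8% lower), so that the share called in each of the 3 terms is near the background. Beside HLA-B and B2M they were the metal-binding MT2A (1.99, SE 0.62, adjusted p = 0.0196 by limma) and CD44, which rose, and GBP1, which fell. Of 6 genes under antigen processing and presentation of peptide antigen via MHC class I, 5 rose and TAPBP did not pass. They include SEC23A (2.37, SE 0.46, adjusted p = 0.00981) and SEC24C (1.82, SE 0.42, adjusted p = 0.0104), coat proteins of the vesicles that leave the endoplasmic reticulum. Without library 12 (49.7% of the table called) 3 rose and 1 fell of the 5, and 4 and 0 of the 6. Without libraries 12 and 18 (79.4% called) they were 3 and 1, and 5 and 0.

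Of 15 genes under defense response to virus, 10 fell and 4 rose with Tau-S199E, against the same shares of the table, 48.3% higher and 41.8% lower. The median difference was -1.81 against 1.41 over the table; standardised differences lie in clusters on either side of 0, so a median reflects which side holds more genes. The falls included the ubiquitin ligase genes TRIM11 (-2.43, SE 0.40) and TRIM56 (-1.70, SE 0.63), the cytidine deaminase gene APOBEC3C (-1.67, SE 0.64) and POLR3D and POLR3G of RNA polymerase III (-1.95 and -1.92), beside HERC5 and GBP1. The 4 that rose were SKP2 (2.16, SE 0.48), NT5C3A (2.03, SE 0.55), POLR3K (1.92, SE 0.58) and DDIT4 (1.74, SE 0.68). POLR3K encodes another subunit of RNA polymerase III. Without library 12, 6 fell and 1 rose (over all genes 355 and 478), and without libraries 12 and 18, 7 fell and 3 rose (597 and 734).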
